A study of Mus musculus with 4 samples.

Results

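Complement is a set of plasma proteins and cell receptors that tag microbes and cell debris for removal. C1q, built of A, B and C chains, starts the classical pathway when it binds antibody complexes or dying cells, and tissue macrophages make much of it. The alternative pathway amplifies the deposition of C3 through factor B and properdin. Small fragments of C3 and C5 act on the receptors C3aR and C5aR1 of myeloid cells, and the receptor encoded by Vsig4, also called CRIg, lets certain tissue macrophages take up C3-coated particles. In the spleen these functions serve the clearance of particles from the blood.

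Expression of 9 such genes was examined in the spleens of mice with B cell leukaemia. They were C1qa, C1qb, C1qc, C3, Cfb, Cfp, C3ar1, C5ar1 and Vsig4, chosen by name, and 8 of them were measured among 19297 genes, each by 1 probe set that carried its symbol alone. C3 was not analysed here. The 2 leukaemic mice had cre recombinase at both alleles of the renin gene Ren1d (RBP-J flox/flox;Ren1dcre/cre), and the 2 wild type mice had unmodified Ren1d (RBP-J flox/flox;Ren1d+/+). All 4 were of the 129Sv background and carried loxP-flanked RBP-J, which encodes the nuclear partner of Notch receptors, so the wild type animals also had floxed alleles. Cre was therefore under the control of the renin locus. The first leukaemic mouse had an age of 107 days (spleen weight 0.7 g) and the other of 93 days (0.47 g). The wild type mice had ages of 80 days (0.12 g) and 81 days (0.16 g). Leukaemic replicate 2 was male and the other mice were female. Total RNA of the whole spleen of each mouse was hybridised to 1 whole-transcript array, and the number of arrays limits the precision. Both leukaemic mice were older, had heavier spleens and carried cre, and these factors cannot be told apart from the leukaemia.

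The comparison asks which genes change in spleen with the leukaemia. Values are log2 expression as deposited, and differences are leukaemic minus wild type with the standard error (SE) of limma's moderated test. A gene was called changed at a Benjamini-Hochberg adjusted p under 0.05 over all genes. In all, 276 genes rose and 199 fell, 58.1% of the calls being rises, or 70.4% with each array centred on its median. The B cell receptor genes Cd79a and Cd79b, picked after their values were seen, lay between 12.28 and 12.91 on all 4 arrays. They mark B cells and do not by themselves identify the tissue as spleen. Of 9 B cell markers measured, 1 rose and 3 fell, beside 1.43% and 1.03% of all genes, with a median difference of -0.81. Wild type replicate 2 stood apart: the mean over 12 acinar pancreas genes was 6.58 and 6.41 in leukaemic replicates 1 and 2, against 6.45 in wild type replicate 1 and 11.54 in wild type replicate 2. Results are therefore also given without that array where it matters. In whole spleen RNA, fewer cells of a type and less RNA per cell cannot be told apart.

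None of the 8 measured complement genes passed limma's test in either direction, against 2.46% of all genes, while 6 had an unadjusted p under 0.05, against 20.7% of all genes. Values of 6 genes were lower in leukaemic spleen and values of 2 were higher. For 5 genes both leukaemic arrays lay below both wild type arrays, as for 26.2% of all genes. For C3ar1 and Vsig4 both leukaemic arrays lay above both wild type arrays, as for 23% of all genes. The median difference of the 8 was -0.41, beside -0.03 over all genes.

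**Figure D1:**
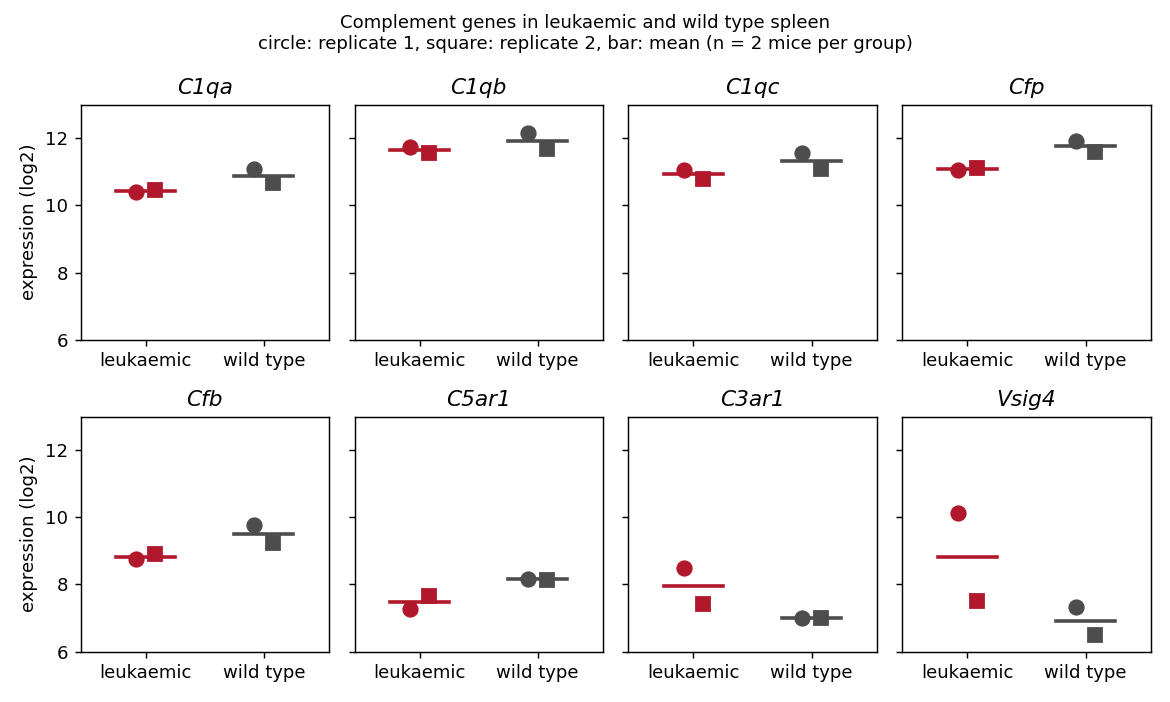
Log2 expression of the 8 measured complement genes, with the leukaemic spleens left of the wild type spleens in each panel; circles are replicate 1, squares are replicate 2 and bars are means of 2 mice. The C1q, Cfp, Cfb and C5ar1 means are lower in leukaemic spleen, and leukaemic replicate 1 stands highest for C3ar1 (8.50) and Vsig4 (10.13).

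The 3 chains of C1q are encoded side by side on chromosome 4, in the order C1qb, C1qc, C1qa. Windows from 250 bases before to 50 bases after the annotated start were available for C1qb and C1qc and are shown because these neighbouring genes had like profiles over the arrays (RefSeq, GRCm38.p6, 5′ to 3′). Capitals mark matches, on either strand, to GGAAGT, a core of sites for ETS factors such as PU.1 and to TGANTCA, the AP-1 site.
C1qb, chr4:136886151-136886450, minus strand: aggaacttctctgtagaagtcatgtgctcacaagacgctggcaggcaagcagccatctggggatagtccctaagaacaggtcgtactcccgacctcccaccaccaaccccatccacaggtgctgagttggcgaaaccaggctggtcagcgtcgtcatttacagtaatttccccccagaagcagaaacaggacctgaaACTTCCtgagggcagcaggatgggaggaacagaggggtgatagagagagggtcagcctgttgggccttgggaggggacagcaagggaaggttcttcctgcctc
C1qc, chr4:136892865-136893164, minus strand: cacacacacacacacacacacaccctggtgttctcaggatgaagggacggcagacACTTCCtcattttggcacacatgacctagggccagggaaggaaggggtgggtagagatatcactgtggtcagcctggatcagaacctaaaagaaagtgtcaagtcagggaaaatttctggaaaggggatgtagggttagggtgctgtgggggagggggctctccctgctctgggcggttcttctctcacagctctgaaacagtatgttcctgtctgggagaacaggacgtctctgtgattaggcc

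C1qa, the A chain, had values of 10.41 and 10.45 in leukaemic replicates 1 and 2, against 11.08 and 10.66 in wild type replicates 1 and 2 (probe set 10517517). The leukaemic arrays lay below both wild type arrays and differed little from each other. The difference was -0.44 (SE 0.18, limma adjusted p = 0.223), a level 1.35-fold lower.

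C1qc, the C chain, stood at 11.05 and 10.80 in leukaemic spleens and at 11.55 and 11.08 in wild type spleens (probe set 10517513). The higher leukaemic value came within 0.03 of the lower wild type value, without overlap. Its difference was -0.39 (SE 0.20, limma adjusted p = 0.337).

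C1qb, the B chain, had values of 11.73 and 11.57 in leukaemic spleens and of 12.15 and 11.67 in wild type spleens (probe set 10517508). It was the gene of the 8 whose groups overlapped, since leukaemic replicate 1 lay above wild type replicate 2. Its difference, -0.26 (SE 0.19, limma adjusted p = 0.548), was within the spread between replicates.

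All 3 chains were lower in wild type replicate 2, the array with pancreatic transcripts, than in wild type replicate 1, by 0.42 for C1qa, 0.48 for C1qb and 0.48 for C1qc. The differences therefore moved with the wild type array that was used. Without wild type replicate 2 they were -0.65, -0.50 and -0.63 for C1qa, C1qb and C1qc, and without wild type replicate 1 they were -0.23, -0.02 and -0.15. The mean of the 3 chains was 11.00 ± 0.09 in leukaemic spleen and 11.36 ± 0.32 in wild type spleen (SD, n = 2 each). The part of pancreatic RNA in this spread was not tested.

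Cfp encodes properdin, which stabilises the C3-cleaving enzyme of the alternative pathway and is made by neutrophils and other leukocytes. It had values of 11.07 and 11.13 in leukaemic spleens, against 11.93 and 11.60 in wild type spleens (probe set 10603860). The groups did not overlap, and the leukaemic arrays were within 0.06 of each other. The difference was -0.67 (SE 0.16, limma adjusted p = 0.0782), or 1.59-fold lower, the smallest p of the 8 genes. It was -0.83 without wild type replicate 2 and -0.50 without wild type replicate 1.

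Cfb encodes factor B, the protease of the alternative pathway enzyme. Its values were 8.75 and 8.89 in leukaemic spleens, against 9.79 and 9.23 in wild type spleens (probe set 10450325). Both leukaemic arrays were lower than both wild type arrays, which themselves differed by 0.56. The difference was -0.69 (SE 0.21, limma adjusted p = 0.127), or 1.61-fold lower. It was -0.97 without wild type replicate 2 and -0.41 without wild type replicate 1.

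C5ar1 encodes the receptor through which C5a attracts and activates neutrophils and macrophages. It had values of 7.28 and 7.67 in leukaemic spleens, against 8.17 and 8.14 in wild type spleens (probe set 10560242). The groups did not overlap, and here the wild type arrays were the closer ones. The difference was -0.68 (SE 0.17, limma adjusted p = 0.0841), or 1.60-fold lower. Its neighbour on chromosome 7, C5ar2, encodes another C5a receptor and overlapped between groups, with 7.29 and 7.55 in leukaemic spleens and 7.40 and 7.61 in wild type spleens.

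The 95% confidence intervals of these 3 differences, unadjusted for the number of genes, ran from -1.05 to -0.28 for Cfp, from -1.17 to -0.20 for Cfb and from -1.08 to -0.27 for C5ar1. Cfp, Cfb and C5ar1 differences were thus of like size, and the 3 intervals overlapped.

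**Figure D2:**
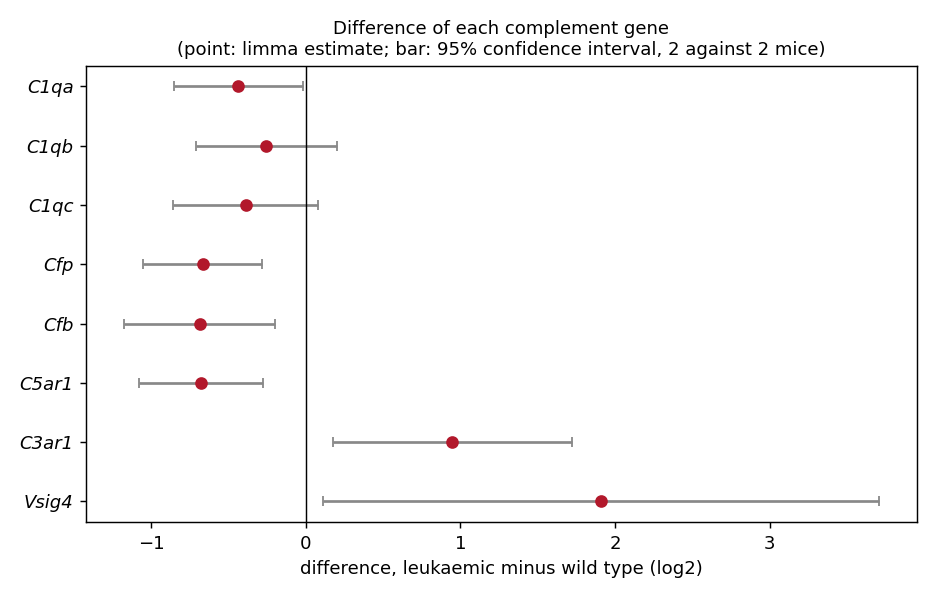
Difference in log2 expression, leukaemic minus wild type, for each of the 8 genes with its 95% confidence interval from limma (2 against 2 mice). The 6 differences left of 0 lie between -0.69 and -0.26, and the interval of Vsig4, from 0.11 to 3.71, is the widest.

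C3ar1 and Vsig4, both receptors for products of C3, went the other way. Their windows are shown to set them beside those of C1qb and C1qc (same source, build and marking).
C3ar1, chr6:122856108-122856407, minus strand: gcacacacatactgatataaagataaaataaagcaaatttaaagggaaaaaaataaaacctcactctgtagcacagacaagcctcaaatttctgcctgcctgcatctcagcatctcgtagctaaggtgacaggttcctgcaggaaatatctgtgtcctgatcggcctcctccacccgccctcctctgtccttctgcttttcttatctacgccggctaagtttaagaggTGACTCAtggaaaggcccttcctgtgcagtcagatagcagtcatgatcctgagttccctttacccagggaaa
Vsig4, chrX:96293389-96293688, minus strand: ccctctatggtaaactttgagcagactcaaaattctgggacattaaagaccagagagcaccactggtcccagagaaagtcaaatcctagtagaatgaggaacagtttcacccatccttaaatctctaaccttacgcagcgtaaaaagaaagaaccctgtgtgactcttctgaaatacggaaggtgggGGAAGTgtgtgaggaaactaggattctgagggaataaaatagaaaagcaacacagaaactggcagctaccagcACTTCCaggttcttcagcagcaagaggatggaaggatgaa

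Vsig4 had values of 10.13 and 7.50 in leukaemic replicates 1 and 2, against 7.32 and 6.50 in wild type replicates 1 and 2 (probe set 10605848). Leukaemic replicate 1 stood far above the other 3 arrays, and leukaemic replicate 2 only 0.19 above the higher wild type array. Relative to the wild type mean the level was 9.33-fold in leukaemic replicate 1 and 1.51-fold in leukaemic replicate 2. The difference of 1.91 (SE 0.76, limma adjusted p = 0.217) rested on leukaemic replicate 1: without that mouse it was 0.60, and without leukaemic replicate 2 it was 3.22 (limma adjusted p = 7.94e-24, with a range up to 0.611 over the 12 alternative settings). Each fit without a leukaemic mouse had 1 residual degree of freedom and an infinite prior, so limma gave every gene the same variance, and it assumes that the single leukaemic array varies like the wild type arrays. The small adjusted p is therefore no measure of the spread of Vsig4 among leukaemic mice.

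C3ar1, the C3a receptor gene, had values of 8.50 and 7.41 in leukaemic spleens, against 7.014 and 6.999 in wild type spleens (probe set 10547657). The wild type arrays were within 0.02 of each other, and leukaemic replicate 1 was again the highest array. The level was 2.82-fold the wild type mean in leukaemic replicate 1 and 1.32-fold in leukaemic replicate 2. The difference was 0.95 (SE 0.32, limma adjusted p = 0.163), which became 0.40 without leukaemic replicate 1 and 1.50 without leukaemic replicate 2 (limma adjusted p = 3.7e-05, with a range up to 0.898 over the alternative settings).

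The gap between the leukaemic mice set these receptors apart from the other 6 genes. In excess of replicate 1 over replicate 2, Vsig4 was in place 6 and C3ar1 in place 101 of 19297 genes. Leukaemic replicate 1 exceeded replicate 2 by 2.63 for Vsig4 and by 1.09 for C3ar1. For the other 6 genes the same gap lay between -0.39 (C5ar1) and 0.25 (C1qc). The mice also differed in age, sex and spleen weight, and Vsig4 lies on the X chromosome, as does Cfp, whose leukaemic values were nearly equal. The part of these factors was not tested. Whether wild type levels near 7 are above background is not known here, since detection calls were not analysed. The folds of Vsig4 and C3ar1 are not exact for that reason.

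**Figure D3:**
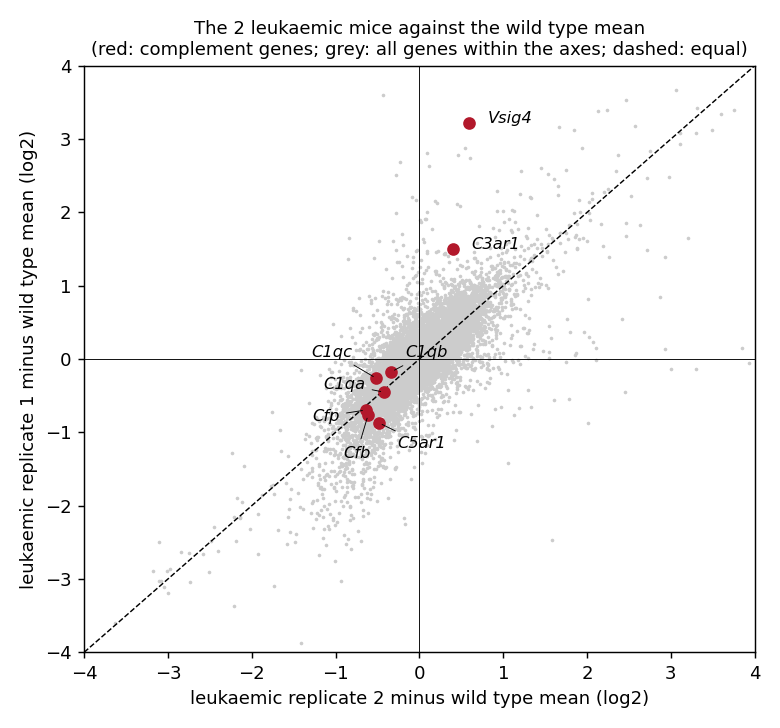
Log2 difference from the wild type mean in leukaemic replicate 1 (vertical) against leukaemic replicate 2 (horizontal), with the 8 complement genes in red, all genes within the axes in grey and the line of equal values dashed. Vsig4 (3.22 and 0.60) and C3ar1 (1.50 and 0.40) lie above the line, and the other 6 genes lie below 0 in both mice.

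Macrophage markers did not share the gap. Of 20 measured, 0 were higher in leukaemic replicate 1 than in replicate 2 by at least 1 (log2), and the gaps ran from -0.71 to 0.56. Their mean was 9.61 and 9.67 in leukaemic replicates 1 and 2, against 10.20 and 10.02 in wild type replicates 1 and 2. By limma 0 of the 20 passed, against 2.46% of all genes, and 14 had an unadjusted p under 0.05, against 20.7%. For 14 both leukaemic arrays lay below both wild type arrays, as for 26.2% of all genes. The median difference of the 20 was -0.50. Timd4, a receptor of resident macrophages for dying cells, and Slc40a1, the iron exporter, had the smallest p among them, with differences of -0.91 (SE 0.18, limma adjusted p = 0.0521) and -0.76 (SE 0.15, limma adjusted p = 0.0557). The 3 C1q differences lay within the range of these markers, from -0.95 to 0.17. The ends of that range stood at percentiles 1.78 and 77.5 of the differences of all genes. Most genes thus lay within it, and it does not tie C1q to these markers.

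Neutrophil markers moved with Cfp and C5ar1 in direction. Of 13 measured, 3 fell, beside 1.03% of all genes, and the median difference was -1.24. All 13 had both leukaemic arrays below both wild type arrays, beside 26.2% of all genes. Their mean was 9.45 and 10.40 in leukaemic replicates 1 and 2, against 11.09 in both wild type spleens. C5ar1 was likewise lowest in leukaemic replicate 1, whereas Cfp was about equal in both leukaemic mice. Monocyte markers had a mean of 9.04 and 9.44 in leukaemic spleens, against 9.86 and 9.64 in wild type spleens. By limma 0 of 11 monocyte markers passed, beside 2.46% of all genes, with 8 at an unadjusted p under 0.05, beside 20.7%. The T cell and dendritic cell markers were also lower, with 6 of 9 and 5 of 10 falling, beside 1.03% of all genes. Precursor B cell markers averaged 10.02 and 10.25 in leukaemic spleens, against 7.47 and 7.35 in wild type spleens. Of these 10 markers 8 rose, beside 1.43% of all genes. The part of cell composition in the complement values was not tested.

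Of 44 other complement genes listed, 40 were measured. Of the 40, 1 rose and 2 fell, beside 1.43% and 1.03% of all genes, and 37 did not pass. Their median difference was -0.21. Both leukaemic arrays lay below both wild type arrays for 16 of the 40, beside 26.2% of all genes. They lay above them for 2 of the 40, beside 23% of all genes.

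The 3 calls were all among receptors and binding proteins, where 9 genes were measured. Cd93, once described as a C1q receptor and also a surface marker of early B cells, was at 11.79 and 11.69 in leukaemic spleens, against 9.74 and 9.81 in wild type spleens, and rose by 1.96 (SE 0.14, limma adjusted p = 0.00231). It also stands in the list of precursor B cell markers. Cr2, the complement receptor CD21 of mature B cells and follicular dendritic cells, was at 9.98 and 10.58 in leukaemic spleens, against 12.36 and 11.93 in wild type spleens, and fell by 1.86 (SE 0.24, limma adjusted p = 0.0208). Itgax encodes CD11c, a subunit of complement receptor 4 and a dendritic cell marker. It was at 8.36 and 8.16 in leukaemic spleens, against 9.45 and 9.03 in wild type spleens, and its fall of 0.98 on the log2 scale (SE 0.18, limma adjusted p = 0.0491) was close to the threshold. The Itgax call held in 5 of the 12 alternative settings. Limma's adjusted p was over 0.05 when arrays were centred on their medians (0.0537) or quantile normalized (0.0581), when dim genes were omitted (0.0505), when all probe sets were fitted (0.0581) and without leukaemic replicate 2 (0.0585). All 3 calls ended without either wild type mouse, in fits with 1 residual degree of freedom: limma's adjusted p for Cd93, Cr2 and Itgax was 0.0622, 0.149 and 0.15 without wild type replicate 1, and 0.132, 0.149 and 0.149 without wild type replicate 2.

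Itgb2, the beta chain shared by complement receptors 3 and 4, and Itgam, the alpha chain of receptor 3, had differences of -0.76 (SE 0.16) and -0.94 (SE 0.31), neither past the threshold. C1qbp, a mitochondrial protein first found by its binding to C1q, differed by 0.56 (SE 0.15, limma adjusted p = 0.0983). It was at 10.44 and 10.50 in leukaemic spleens and at 10.04 and 9.78 in wild type spleens. Of the 9 genes of this list, both leukaemic arrays lay above both wild type arrays for 2, beside 23% of all genes. They lay below for 6, beside 26.2% of all genes.

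Among 14 genes of the classical and lectin pathways 0 passed limma's test, beside 2.46% of all genes, and the median difference was -0.28. An unadjusted limma p under 0.05 was found for 5 of the 14, beside 20.7% of all genes. Fcnb, a ficolin of myeloid cells that recognises sugars, was at 8.53 and 8.96 in leukaemic spleens, against 9.63 and 9.66 in wild type spleens (difference -0.90, SE 0.18, limma adjusted p = 0.0542). C4b, the C4 component shared by both pathways, was at 9.32 and 9.34 in leukaemic spleens, against 10.52 and 9.92 in wild type spleens (difference -0.89, SE 0.21, limma adjusted p = 0.0754). The C4b difference was -1.19 without wild type replicate 2 and -0.59 without wild type replicate 1. C4a is a near-identical copy of C4b, so their signals may not be separate.

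Cfb lies next to C2 on chromosome 17, in the class III part of the major histocompatibility complex that also holds C4a and C4b. All 4 of these genes had both leukaemic arrays below both wild type arrays, as had 26.2% of all genes, and C4a and C4b may not be separate signals. C2, the classical pathway relative of factor B, was at 8.10 and 7.77 in leukaemic spleens and at 8.96 and 8.14 in wild type spleens (difference -0.62, SE 0.27, limma adjusted p = 0.266). The gene on the other side of Cfb, Nelfe, overlapped between groups, at 8.71 and 8.66 in leukaemic spleens and 8.61 and 8.74 in wild type spleens. The genes that flank the C1q cluster, Tex46 and Epha8, had differences of -0.04 and -0.21, and Epha8 also had both leukaemic arrays below both wild type arrays. Beside C3ar1, Foxj2 was called lower (difference -0.74, SE 0.14, limma adjusted p = 0.0491) and Necap1 differed by -0.11. Beside Cfp, Timp1 differed by 0.89 (SE 0.19, limma adjusted p = 0.0606) and Elk1 by -0.21. A part of chromosomal position was not tested.

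Of 11 regulators 0 passed limma's test, beside 2.46% of all genes, and 4 had an unadjusted p under 0.05, beside 20.7%. All 11 differences were negative, as were those of 10832 of 19297 genes, and their median was -0.37. Both leukaemic arrays lay below both wild type arrays for 4 of the 11, beside 26.2% of all genes. Clu, which encodes the chaperone clusterin, an inhibitor of the terminal complex, was at 10.59 and 10.58 in leukaemic spleens, against 11.49 and 11.18 in wild type spleens (difference -0.75, SE 0.16, limma adjusted p = 0.0612). Cd59b, an inhibitor of the membrane attack complex, had a difference of -0.58 (SE 0.15, limma adjusted p = 0.0979). Cd55, which speeds the decay of C3-cleaving enzymes, was at -0.78 (SE 0.23) with groups that did not overlap. Serping1, the C1 inhibitor gene, was at 10.75 and 10.66 in leukaemic spleens and at 11.47 and 10.69 in wild type spleens. The groups overlapped, since leukaemic replicate 1 lay above wild type replicate 2, the array with pancreatic transcripts. Wild type replicate 1 lay above both leukaemic arrays.

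Of 6 genes of the terminal pathway 0 passed limma's test, beside 2.46% of all genes, and 0 had an unadjusted p under 0.05, beside 20.7%. The groups overlapped for all 6, as for 9795 of 19297 genes. Their differences lay between -0.16 and 0.00, as for C8a (-0.16, SE 0.15, limma adjusted p = 0.668) and C6 (-0.15, SE 0.16, limma adjusted p = 0.716). These components are made mainly in the liver. C6 was at 9.67 and 9.45 in leukaemic spleens and at 9.83 and 9.58 in wild type spleens. C8a, C8b, C8g, Hc and C9 were dimmer, between 4.74 and 7.18 over all arrays. Whether those levels are above background is not known here, and the source of the C6 signal was not tested. Liver markers had means of 6.48 and 6.39 in leukaemic spleens and 6.42 and 6.58 in wild type spleens. By limma 0 of 9 passed, beside 2.46% of all genes, with 0 at an unadjusted p under 0.05, beside 20.7%.

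**Figure D4:**
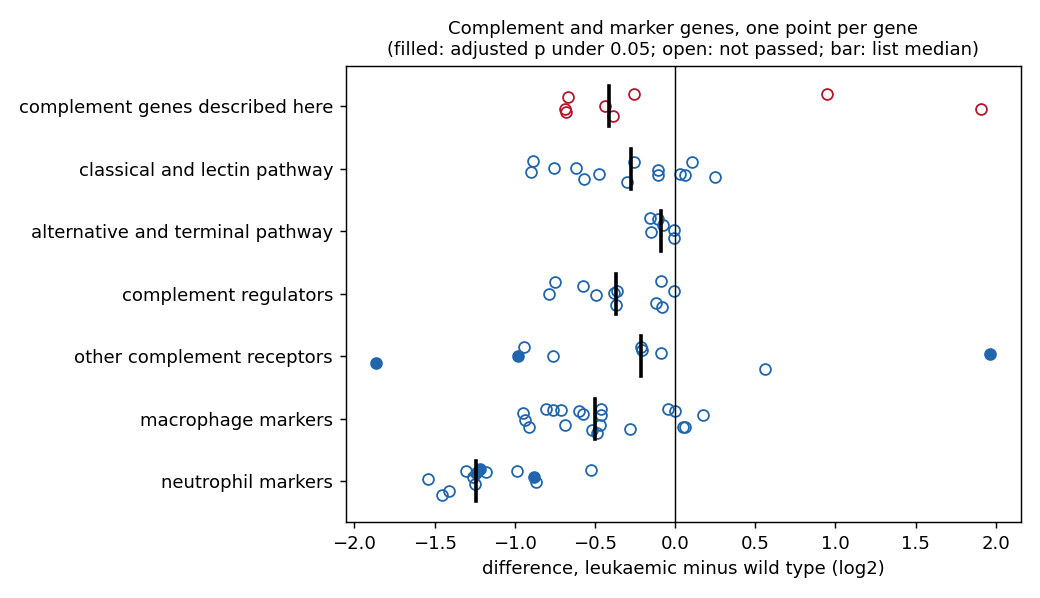
Difference in log2 expression, leukaemic minus wild type, for the 8 complement genes (red), 4 lists of other complement genes and 2 marker lists (blue), with 1 point per gene, filled where the adjusted p was under 0.05, and a bar at each list median. Medians run from -1.24 for neutrophil markers to -0.09 for the terminal pathway, and Vsig4 (1.91), Cd93 (1.96) and Cr2 (-1.86) lie at the ends.

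Windows were available for 6 of the 8 measured genes, and those of C1qa and Cfb were not analysed here. Both motifs were searched on both strands. GGAAGT occurred in 4 of the 6, namely C1qb, C1qc, C5ar1 and Vsig4, and in 23.8% of all 32851 promoter windows of that length. In C1qb its first base lay at -53 and in C1qc at -195, both on the opposite strand to the gene, counted from the annotated start. Vsig4 held it at -63 and, on the opposite strand, at 11. TGANTCA occurred in C3ar1, at -22, and in 7.81% of all windows. No match overlapped another. GGAAGT thus occurred in genes with lower values (C1qb, C1qc and C5ar1) and in Vsig4, with higher values. TGANTCA occurred only in C3ar1, with higher values, and Cfp held neither motif.

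The genes with profiles nearest to the mean of C1qa, C1qb and C1qc, each profile centred on its own mean over the 4 arrays, were Cryab, Klhdc1, Calhm5, Cd209f and Srd5a3, at root mean square distances of 0.02 to 0.03 (log2). The C chain itself was at 0.05 and the A chain at 0.07. The 4 arrays carry little information on likeness, and no macrophage marker of the list was among the 5. The genes nearest to Vsig4, a search added after its values were seen, were Bfsp2, Tmc7, Tnfrsf19, Gldc and Pcdhb18, at distances of 0.31 to 0.47. Bfsp2 had values of 10.26 and 7.55 in leukaemic replicates 1 and 2, against 7.58 and 7.33 in wild type replicates 1 and 2. For C3ar1, likewise added, they were Nkd2, Gphn, Pipox, Slc25a13 and Tead1, at 0.04 to 0.11. All 10 of these genes were highest in leukaemic replicate 1. That follows from how they were found, by likeness to Vsig4 and C3ar1, and is no separate result.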

How the data were processed

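Total RNA of 4 mouse spleens was hybridised to Affymetrix whole-transcript arrays, 1 per mouse, and samples were grouped by their titles. The values deposited by the authors are on a log2 scale, with a value for each probe set on every array. RMA, R 2.15.0 and limma 3.12.1 are named in the submitters' processing notes, without their settings. Array medians were 7.96 in both leukaemic spleens and 8.03 and 8.02 in wild type spleens.

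Of 23309 probe sets, 20729 had a single gene symbol in the platform annotation. For a gene with several, the brightest by its 4-array mean was kept. The groups were tested with R 4.3.3 and limma 3.58.1 (functions lmFit and eBayes, no covariate, no filter) over all single-symbol probe sets, and p-values were adjusted over 19297 genes. The fit had 2 residual and 4.83 prior degrees of freedom. Each single gene is limited by the design, since the smallest two-sided exact permutation p in 2 against 2 mice is 0.333.

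Members, gene lists, motifs and tests were chosen with earlier results of these data known. Named were all measured members, called genes of the other complement lists (or the 2 of smallest p), marker genes of smallest p, and the 5 profiles nearest to C1q. Other genes (C2, C5ar2, Itgb2, Itgam, C1qbp, Cd55, Serping1, Cd79a, Cd79b, chromosomal neighbours and profiles nearest to Vsig4 and C3ar1) were chosen after their values were seen. The fitting code was tested on simulated data, with 50 genes changed at each size. Changes of 0.5, 1, 2 and 3 (log2) were called in 0%, 10%, 70% and 94% of cases. A change of 1 or less was thus seldom called, so a gene that did not pass may still differ. Promoter windows came from RefSeq. Alternatives covered scaling, dim probe sets, the variance prior, probe set choice, a replicate block and each mouse left out.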

Additional observations from a re-analysis of the deposited data

How the results depend on the processing

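Of 12 alternative settings, 10 gave the same number of called members, 0 of 8, and 2 did not. Over the 4 fits that each left out a mouse the number ran from 0 to 2, the 2 being Vsig4 and C3ar1 without leukaemic replicate 2. Taking the replicate number as a block gave 5 called members (C3ar1 and Vsig4 higher, Cfb, Cfp and C5ar1 lower) and 10 other complement genes, with 1693 calls over all genes. The mice were individuals that shared only a number, and the correlation of same-numbered deviations was -0.086, so this is not a paired result. That fit had 1 residual and 19.7 prior degrees of freedom. No member changed direction under any of the 12 settings. This stability was largely fixed in advance. Leaving out a mouse could reverse only C1qb, since the groups of the other members did not overlap. Median centring moved all differences alike and by little, that of C1qb from -0.26 to -0.19. Quantile normalization could also have changed direction. The other settings left the difference of each member as it was. C1qb was at -0.02 without wild type replicate 1. Of the other complement genes 3 were called, 2 with median centring, quantile normalization, the dimmest genes left out or all probe sets in the fit, 4 with probe sets averaged, 6 with an intensity trend in the prior and 7 with a robust prior, and from 0 to 6 over the fits without 1 mouse. Calls over all genes were 475, and numbered 261 after quantile normalization, 974 with a robust prior, 1043 without leukaemic replicate 2, 38 without wild type replicate 1 and 0 without wild type replicate 2, where 3141 genes had an unadjusted p under 0.05. The cause of these shifts was not tested, beyond the drop from 2 residual degrees of freedom when a mouse is left out. With 2 mice per group, depth of signal over background was not assessed, since detection calls were not analysed here.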
